A study of Mus musculus with 6 samples.

Results

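The respiratory chain and ATP synthase were followed gene by gene in splenic CD4+ T cells taken in the acute phase of experimental autoimmune encephalomyelitis (EAE), a mouse disease in which immune cells attack brain and spinal cord. The set holds the protein-coding rows whose symbol starts with Nduf, Uqcr, Cox4, Cox5, Cox6, Cox7, Cox8, Atp5 or mt-, together with the Sdh genes of complex II, Cyc1 and Cycs. These were 109 of the 54532 genes in the deposited table, 96 of them in the nucleus and 13 on mitochondrial DNA. Complex I had 36 nuclear and 7 mitochondrial members, complex II 4 nuclear members, complex III 9 and 1, complex IV 20 and 3, and complex V 17 and 2. The name rule also took 9 assembly factors and Cycs, the gene for cytochrome c. Ndufa4 and Ndufa4l2 were placed with complex IV, where the NDUFA4 protein belongs, in spite of their names.

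RNA was sequenced from 3 control samples of the wild-type genotype and 3 samples labelled Ogt-KD with the genotype Ogtfl/wt CD4-Cre, all on C57BL/6. Ogt encodes O-GlcNAc transferase, which attaches a single sugar to serine and threonine residues of proteins inside the cell. In Ogt-KD mice 1 allele is floxed and Cd4 sequence directs a Cre recombinase to T cells, while no Cre is named for the controls, so effects of Cre and of the Ogt allele cannot be told apart. Ages were not given, nor whether each sample came from 1 mouse or whether its number marks a litter or day.

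Total counts ran from 18127031 to 25683453 per library. Ogt stood at 599, 628 and 562 CPM (read counts scaled to library size, with edgeR's TMM factors) in control 1, 2 and 3 and at 662, 599 and 459 CPM in Ogt-KD 1, 2 and 3, so the groups overlapped (log2 fold change -0.06, SE 0.15, edgeR adjusted p = 0.981). The count covers the whole gene, which lies on the X chromosome, and may include exons that the deletion leaves in place. It also pools all cells of a sample, so it does not show how many cells lost Ogt. The count thus does not check the label, and control and Ogt-KD below mean libraries so labelled. The 7 CD4 T cell markers summed to between 3280 and 3864 CPM per library, with Cd4 at 739 to 903 CPM. All 5 macrophage markers were detected and summed to 988, 1028 and 2559 CPM in control 1, 2 and 3 and to 403, 475 and 2379 CPM in Ogt-KD 1, 2 and 3. In such bulk samples fewer cells of a type and less RNA per cell cannot be told apart.

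Oxidative phosphorylation couples the oxidation of NADH and succinate to the making of ATP in the inner mitochondrial membrane. Complexes I and II pass electrons to coenzyme Q, complex III passes them on to cytochrome c, complex IV reduces oxygen, and complexes I, III and IV pump the protons that drive complex V, the ATP synthase. Mitochondrial DNA encodes core subunits of complexes I, III, IV and V, while the nucleus encodes all of complex II and the other subunits, so the chain is built from both genomes. T cells raise mitochondrial respiration as well as glycolysis when they are activated.

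No respiratory chain gene passed the test between the groups. Of the 109 members, 103 had enough reads to be tested, and 0 had an edgeR adjusted p under 0.05 over all 16075 genes tested, where 1 gene, Gm33707, passed (0.00622% of those tested). The lowest adjusted p of any member was 0.624. At an unadjusted p under 0.05 there was 1 member, Atp5g1, or 0.971% of those tested, against 1209 genes or 7.52% of all genes. It was higher in Ogt-KD, as were 5.04% of all genes, and 0 members were lower, against 2.48% of all genes. The 3 control and 3 Ogt-KD values did not overlap for 2 members, Atp5g1 and the assembly factor Ndufaf7, or 1.94%, against 13.3% of all genes. Both shares among members lay below the background.

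Fold changes were small and fell on both sides of 0. With Ogt-KD set over control, the median log2 fold change was -0.02 over the 103 members, with 45 above and 58 below 0, against a median of -0.00 over all genes. For 97 members the 95% interval of the log2 fold change lay between -1 and 1, that is within 2-fold either way, and for 50 it lay between -0.5 and 0.5. The intervals of mt-Nd4l, mt-Co3, mt-Atp8, Ndufa12, Cox6a2 and Atp5mpl reached beyond 1 on a side. In the table deposited by the authors, adjusted p was under 0.05 for 0 of 106 members with a value, against 110 of 26365 genes (0.417%), and the lowest adjusted p of a member in the authors' deposited table was 0.8. DESeq2 called 0 members as well, against 111 genes (0.681%). A p above the threshold does not show that the groups were alike, and with 3 libraries a group changes could be missed. The intervals are not adjusted for the number of genes tested. That of Atp5g1 excluded 0, yet its edgeR adjusted p was 0.624.

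**Figure D1:**
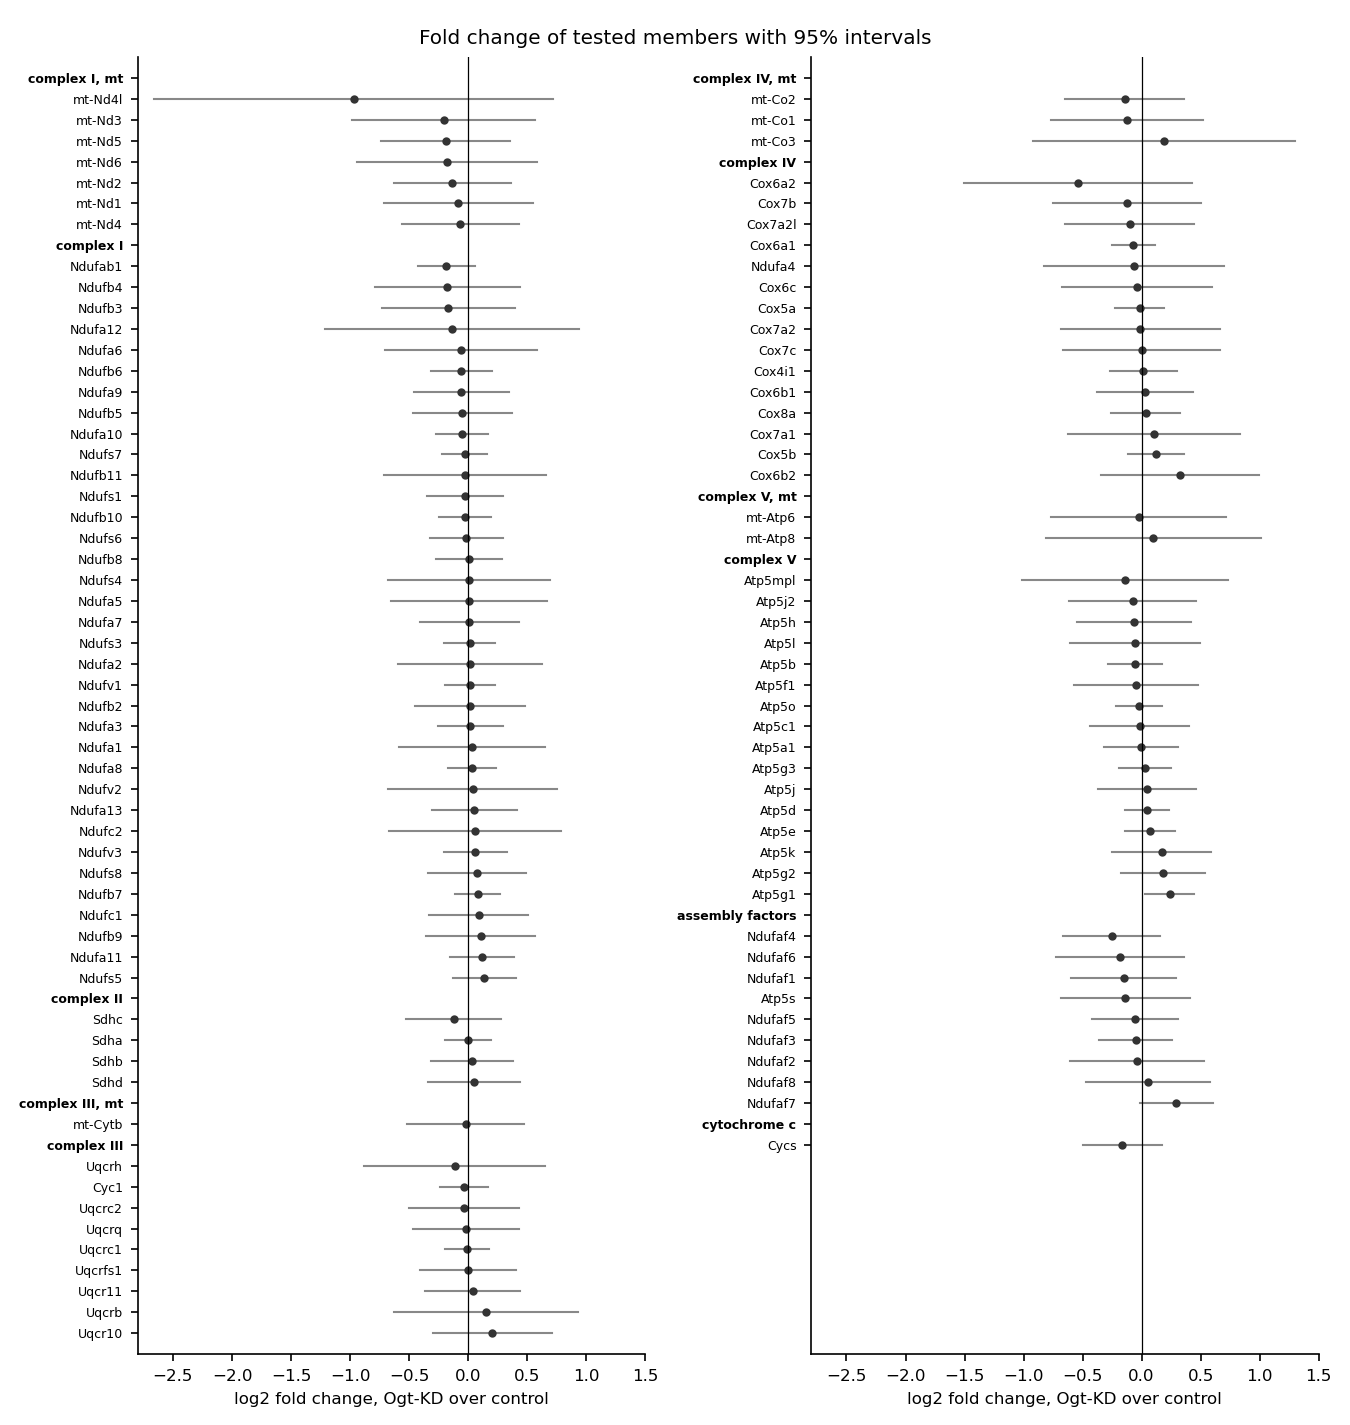
Log2 ratio of Ogt-KD to control for tested members, by complex and genome (mt, mitochondrial genome). Points are edgeR estimates and lines are 95% intervals; all intervals shown except that of Atp5g1 include 0.

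The 13 genes of the mitochondrial genome code for 7 complex I subunits, cytochrome b of complex III, 3 subunits of complex IV and 2 of complex V. Together they took 1.87%, 1.39% and 1.91% of all reads in control 1, 2 and 3 and 1.46%, 1.36% and 2.15% in Ogt-KD 1, 2 and 3, and so gave more reads than the 96 nuclear members, whose shares ran from 0.702% to 0.922%. Their summed level was 17658 ± 3171 CPM in the controls and 16392 ± 4971 CPM in the Ogt-KD samples (SD, n = 3 each), a ratio of 0.928. Control 1, control 3 and Ogt-KD 3 were high and control 2, Ogt-KD 1 and Ogt-KD 2 low, so both groups held high and low libraries. Of the 13 genes 11 had a log2 fold change below 0 and 2 above, with a median of -0.13, and 0 were called.

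mt-Co1, the catalytic subunit of complex IV that carries its oxygen-reducing centre, was the most abundant member and held between 52.0% and 55.8% of the reads of the 13 genes. It stood at 10553, 7749 and 10688 CPM in control 1, 2 and 3 and at 7291, 6951 and 12325 CPM in Ogt-KD 1, 2 and 3 (log2 fold change -0.13, SE 0.27, edgeR adjusted p = 0.979). The highest and the lowest of the 6 values were both from Ogt-KD samples. mt-Cytb, the cytochrome b of complex III, stood at 3066, 2142 and 2866 CPM against 2455, 2214 and 3302 CPM, with a log2 fold change of -0.02 (SE 0.21). Again the groups overlapped, with Ogt-KD 3 on top and control 2 at the bottom.

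The complex I genes of mitochondrial DNA encode the membrane arm, through which protons are pumped. In control 1, 2 and 3 against Ogt-KD 1, 2 and 3, mt-Nd1 stood at 1728, 1179 and 1862 against 1304, 1144 and 2055 CPM. mt-Nd2 stood at 1205, 820 and 1136 against 885, 793 and 1201 CPM. mt-Nd4 stood at 1109, 794 and 1082 against 894, 761 and 1199 CPM. In all 3 genes control 2, Ogt-KD 1 and Ogt-KD 2 lay below the other libraries. mt-Nd5 stood at 1332, 1038 and 1451 against 915, 932 and 1505 CPM. mt-Nd6, the only protein gene read from the other strand, stood at 298, 202 and 336 against 186, 179 and 374 CPM. Log2 fold changes of these 5 lay between -0.19 (mt-Nd5, SE 0.23) and -0.06 (mt-Nd4, SE 0.21). mt-Nd5 and mt-Nd6 overlap on opposite strands, and no source used here states whether reads were counted by strand.

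The other 6 mitochondrial genes were listed far lower, and all 6 lie inside 1 stretch of the mitochondrial genome that has a near-identical copy in the nuclear genome. On GRCm38 this copy lies on chromosome 1 (chr1:24611535-24616197), where annotated pseudogenes follow each other in the order of the mitochondrial genes from the end of mt-Co1 to the first 63.6% of mt-Nd4. mt-Co2, mt-Atp8, mt-Atp6, mt-Co3, mt-Nd3 and mt-Nd4l are wholly inside it. Their mean FPKM, the authors' level scaled for gene length and depth, ran from 6.27 to 53.9, against 502 to 5956 for the other 7 genes. The pairs below show how little the copies differ. The first 60 bases of each member's GENCODE M21 transcript are given over the same bases of its copy, and a capital marks a difference.
mt-Nd3: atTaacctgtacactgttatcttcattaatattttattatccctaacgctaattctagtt
Gm28438: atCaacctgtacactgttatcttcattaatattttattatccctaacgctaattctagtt
mt-Nd4l: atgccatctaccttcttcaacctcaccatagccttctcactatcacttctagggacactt
Gm10222: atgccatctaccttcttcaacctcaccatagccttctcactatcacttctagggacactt
mt-Nd3 and Gm28438 differed at 1 of 345 aligned bases, T3C counted from the first base of mt-Nd3. mt-Nd4l and Gm10222 were identical over 294 bases, mt-Co2 and Gm28661 over 681, mt-Atp6 and Gm10925 over 678, and mt-Co3 and Gm28437 over 783. For mt-Atp8 only 43 of its 204 bases matched an annotated copy, Gm10925, with no difference. The rest of mt-Atp8 was placed in the stretch by coordinates, and its likeness to the nuclear copy was not checked. How the authors placed reads that fit more than 1 position was not stated in the sources used here, so the levels of these 6 genes are uncertain. The same limit holds for parts of mt-Nd4 and mt-Co1. mt-Nd4 and Gm28439 were identical over 876 bases, and mt-Co1 and Gm29216 differed at 1 of 483. Whether read placement explains the low values of the 6 genes was not tested.

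**Figure D2:**
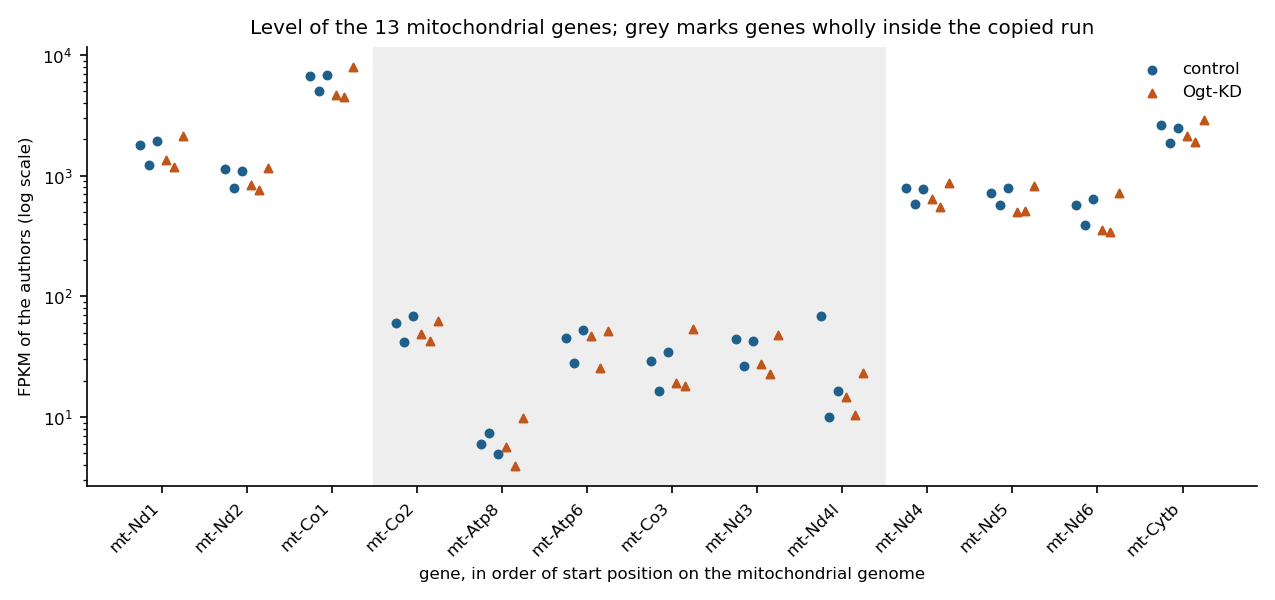
FPKM of the 13 mitochondrial genes (log axis) in the 3 control (circles) and 3 Ogt-KD (triangles) libraries, replicates 1 to 3 from left to right. The 6 genes wholly inside the copied stretch (grey) had means of 6.27 to 53.9 FPKM and the other 7 had 502 to 5956 FPKM.

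Reads were listed for the copies as well as for the members, in shares that differed between pairs. mt-Co2, the complex IV subunit that receives electrons from cytochrome c, had 911, 705 and 832 reads in control 1, 2 and 3 and 692, 579 and 1063 in Ogt-KD 1, 2 and 3, and Gm28661 had 413, 329 and 440 against 327, 335 and 552. mt-Co3, also a core subunit of complex IV, had 507, 316 and 479 against 311, 283 and 1049 reads, and Gm28437 had 352, 159 and 315 against 221, 195 and 465. Ogt-KD 3, the library with the most reads in total, had the most reads of all 4 rows; scaled to library size mt-Co2 was highest in control 3, at 46.9 CPM against 42.5 CPM in Ogt-KD 3. The proton channel subunit of complex V, mt-Atp6, had 680, 477 and 637 against 655, 343 and 874 reads, and Gm10925 had 647, 541 and 651 against 453, 354 and 1059. mt-Nd3 of complex I had 344, 227 and 267 against 197, 157 and 421 reads, and Gm28438 had 41, 29 and 39 against 28, 31 and 69. mt-Atp8, a small subunit of complex V, had only 27, 37 and 18 against 24, 16 and 50 reads. None of these genes separated the groups.

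mt-Nd4l had the lowest log2 fold change of all members, -0.97 (SE 0.72, 95% interval -2.66 to 0.72, edgeR adjusted p = 0.857), and 1 library set its sign: without control 1 it was 0.31. It had 452 reads in control 1, against 73 and 87 in control 2 and 3 and 90, 62 and 174 in Ogt-KD 1, 2 and 3. Its copy Gm10222 had 62, 58 and 44 reads in the controls and 43, 261 and 71 in Ogt-KD 1, 2 and 3. The highest member count and the highest copy count thus stood in different libraries, and with member and copy summed the log2 fold change was -0.15 (SE 0.59). Summing was chosen after the data were seen.

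Complex I takes electrons from NADH, and its nuclear members comprise the 7 core subunits of the matrix arm and 29 supernumerary subunits around them. The 36 nuclear members summed to 2058, 1701 and 2113 CPM in control 1, 2 and 3 and to 1765, 1747 and 2342 CPM in Ogt-KD 1, 2 and 3, with means of 1957 ± 224 and 1951 ± 339 CPM (SD, n = 3 each). All 36 were tested and 0 were called, with 22 above and 14 below 0, a median log2 fold change of 0.01, and a range from -0.19 to 0.14. The groups overlapped for all 36. Median values were 0.01 for the core and 0.01 for the supernumerary subunits.

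Among the core subunits, Ndufs1, which holds iron-sulfur clusters that carry the electrons, stood at 68.8, 65.4 and 80.5 CPM in the controls and 62.3, 65.7 and 82.6 CPM in Ogt-KD 1, 2 and 3. Ndufv1, which binds the flavin and NADH, stood at 59.97, 68.9 and 70.9 against 69.0, 67.7 and 65.3 CPM. The log2 fold change was -0.03 (SE 0.14) for Ndufs1 and 0.02 (SE 0.09) for Ndufv1, both smaller than their errors.

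The smallest p values of nuclear complex I members belonged to Ndufab1, Ndufs5 and Ndufb7. Ndufab1, the acyl carrier protein that also serves mitochondrial fatty acid synthesis, stood at 37.0, 34.0 and 37.7 CPM in the controls and 29.5, 34.7 and 31.4 CPM in the Ogt-KD samples (log2 fold change -0.19, SE 0.10, edgeR adjusted p = 0.741). Ndufs5 stood at 38.3, 31.6 and 38.6 against 42.7, 38.0 and 38.6 CPM (log2 fold change 0.14, SE 0.11). Ndufb7 stood at 62.8, 63.5 and 65.6 against 69.1, 70.5 and 63.5 CPM (0.08, SE 0.08). In each of the 3 genes at least 1 Ogt-KD value lay inside the control range.

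Levels between genes were compared per length. By the authors' FPKM, Ndufa1, a supernumerary subunit of the membrane arm, was highest of the nuclear complex I members at a mean of 128 FPKM, with 136, 95.1 and 150 FPKM in the controls and 102, 105 and 180 FPKM in the Ogt-KD samples. Ndufb2 was lowest at a mean of 1.30 FPKM and between 6.31 and 8.77 CPM in the 6 libraries. The deposited gene length behind the FPKM exceeded that of the principal transcript more than 2-fold for 26 members, by up to 11.8-fold for Atp5l, so FPKM understates these genes against the others. Per kilobase of the principal transcript Ndufa3 led the nuclear complex I members with 140 CPM and Ndufb2 stayed low at 1.69 CPM. The principal transcript used for Ndufb2 is 4371 bases long. Ndufb2 also overlaps Gm42420 on its own strand and Braf and Gm16272 on the other, so its rank is uncertain. The choice of length does not touch comparisons of 1 gene between libraries.

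Ndufa12, an accessory subunit of the matrix arm, has a copy with nearly as many reads as the gene. It stood at 31.0, 16.6 and 14.1 CPM in the controls and at 12.98, 11.5 and 31.5 CPM in Ogt-KD 1, 2 and 3, the widest range of any nuclear complex I member (2.75-fold). Its processed pseudogene Gm15920 on chromosome 5 (chr5:130188395-130188796) stood at 14.02, 17.3 and 27.0 against 20.3, 22.9 and 19.5 CPM, and over the 6 libraries had 98.1% as many reads as the gene itself. A stretch of 60 bases inside the aligned part shows 1 of the 2 differences over 402 bases, A225G, counted from the first base of the Ndufa12 transcript and marked by a capital.
Ndufa12: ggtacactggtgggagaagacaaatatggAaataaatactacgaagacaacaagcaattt
Gm15920: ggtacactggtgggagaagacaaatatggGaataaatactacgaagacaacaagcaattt
Summed, the pair stood at 44.99, 33.8 and 41.1 against 33.3, 34.3 and 51.0 CPM (log2 fold change -0.01, SE 0.19).

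Complex II, succinate dehydrogenase, is wholly nuclear and also belongs to the citric acid cycle. Its 4 genes summed to 487, 447 and 525 CPM in the controls and 464, 457 and 538 CPM in the Ogt-KD samples, with group means of 486 ± 38.8 and 486 ± 44.6 CPM (SD, n = 3 each). Sdha, the flavoprotein that oxidises succinate, was the steadiest of all members, at 263, 254 and 276 against 267, 259 and 267 CPM, a 1.09-fold range (log2 fold change -0.00, SE 0.08, 95% interval -0.19 to 0.19). Its interval excludes a change of 0.5 on the log2 scale in either direction.

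Sdhb, the iron-sulfur subunit, stood at 101, 83.6 and 102 against 90.0, 85.0 and 118 CPM. Sdhc, a membrane anchor, stood at 53.0, 48.6 and 66.2 against 43.6, 47.9 and 62.5 CPM, with the lowest log2 fold change of the complex at -0.12 (SE 0.17). The other anchor, Sdhd, stood at 69.7, 60.9 and 80.8 against 63.6, 65.0 and 90.0 CPM. Sdha had the highest and Sdhc the lowest mean FPKM of the complex, 63.7 and 16.4. None of the 4 separated the groups.

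Complex III passes electrons from coenzyme Q to cytochrome c. Its 9 nuclear genes summed to 855, 691 and 883 CPM in the controls and 706, 692 and 1017 CPM in the Ogt-KD samples, means of 809.5 ± 104 and 805 ± 184 CPM (SD, n = 3 each). Of the 9, 3 lay above and 6 below 0, 0 were called, and the median log2 fold change was -0.01. All 9 overlapped between groups.

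The 2 subunits that carry electrons with Cytb are Uqcrfs1, the Rieske iron-sulfur protein, and Cyc1, cytochrome c1. Uqcrfs1 stood at 87.1, 76.0 and 98.4 against 73.0, 78.7 and 109.7 CPM and Cyc1 at 105, 97.6 and 106 against 96.9, 96.3 and 108 CPM. Uqcrc1, a large core protein that holds no redox centre, stood at 131, 128 and 122 against 133, 123 and 124 CPM. Cyc1 and Uqcrc1 varied little, 1.12-fold and 1.09-fold from lowest to highest library, and Uqcrfs1 more.

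The members of complex III with the widest ranges over the libraries were the small subunits Uqcrb, Uqcrh and Uqcr10, while Uqcr11, also small, ranged 1.47-fold. Uqcrh, the hinge protein, ranged 2.12-fold and stood at 169, 113 and 179 against 105, 103 and 218 CPM (log2 fold change -0.11, SE 0.32). Uqcrb stood at 54.4, 25.98 and 54.6 against 41.1, 40.0 and 68.7 CPM (0.15, SE 0.33). Uqcr10 stood at 53.4, 46.2 and 61.8 against 51.5, 51.3 and 83.1 CPM (0.21, SE 0.21, edgeR adjusted p = 0.934). For all 3 Ogt-KD 3 was the highest library. Uqcrh was highest of the nuclear complex III genes at 119 FPKM and Uqcrc1 lowest at 30.5 FPKM, though per kilobase of the principal transcript Uqcrc1 came to 76.8 CPM and Uqcrq was lowest at 50.7 CPM.

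Cycs, the mobile carrier between complexes III and IV that also triggers apoptosis when released, stood at 96.4, 68.9 and 80.6 CPM in the controls and 64.7, 75.2 and 79.4 CPM in Ogt-KD 1, 2 and 3 (log2 fold change -0.17, SE 0.14, edgeR adjusted p = 0.898). Its groups overlapped. Reads listed for 4 near-identical copies came to 10.2% of its own.

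Complex IV, cytochrome c oxidase, had 20 nuclear members, of which 15 were tested. They summed to 1757, 1410 and 1779 CPM in the controls and 1425, 1408 and 2022 CPM in the Ogt-KD samples, means of 1648 ± 207 and 1618 ± 349.6 CPM (SD, n = 3 each). Of the 15, 7 lay above and 8 below 0, 0 were called, and the median log2 fold change was -0.01. Not tested for lack of reads were Cox4i2, Cox7b2, Cox8b, Cox8c and Ndufa4l2.

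Several complex IV subunits come as paralogs used in different tissues, and in these cells 1 form of each pair held nearly all of the signal. Cox4i1, the ubiquitous form, stood at 265, 235 and 264 CPM in the controls and 248, 229 and 295 CPM in the Ogt-KD samples, or 146 to 190.2 FPKM, while Cox4i2, known from lung and hypoxia, stood at 0.114 to 0.557 FPKM. Cox6a1 stood at 277 to 299 FPKM and Cox6a2, its form of heart and skeletal muscle, at 3.49 to 11.1 FPKM. Cox6b1 stood at 110 to 166 FPKM and Cox6b2, known from testis, at 0.935 to 1.76 FPKM. In none of the 3 pairs did the lowest library of the first form come near the highest library of the other.

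The muscle form Cox7a1 stood at 1.69 to 2.99 FPKM, against 38.8 to 76.9 FPKM for Cox7a2 and 169.5 to 301 FPKM for Cox7a2l. Cox8a stood at 249.9 to 326 FPKM and the muscle form Cox8b at 0.111 to 0.376 FPKM. Cox8c and Cox7b2, both known from testis, had 0 reads in all 6 libraries, which allows up to 3 counts in each, or 0.120 to 0.169 CPM. Ndufa4 stood at 47.9 to 97.6 FPKM, while Ndufa4l2, a form induced by hypoxia, reached at most 0.177 FPKM and had 0 reads in 3 libraries. The order of the forms within each set was the same in all 6 libraries.

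Cox6a1 was the steadiest complex IV gene, at 213, 208 and 211 CPM in the controls and 198, 208 and 195 CPM in the Ogt-KD samples (log2 fold change -0.07, SE 0.08), and it had the highest mean FPKM of the nuclear complex IV genes, 290.4. Cox5a, a nuclear subunit on the matrix side, stood at 46.8, 44.8 and 51.1 against 45.6, 47.6 and 47.9 CPM. Ndufa4, in contrast, stood at 102, 66.0 and 116 against 67.9, 67.0 and 135 CPM, and Cox7a2l at 299, 226 and 281 against 209, 197 and 346 CPM. In these 2 control 2, Ogt-KD 1 and Ogt-KD 2 lay below the other libraries, which was not so for Cox6a1 and Cox5a.

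The 3 nuclear complex IV genes with the smallest p were Cox5b, Cox6a2 and Cox6b2. Cox5b stood at 91.8, 95.04 and 107 against 101, 102 and 117 CPM (log2 fold change 0.12, SE 0.10, edgeR adjusted p = 0.886). Cox6a2 stood at 3.65, 3.95 and 7.60 against 2.40, 2.74 and 5.23 CPM (-0.54, SE 0.41), so each Ogt-KD value was below the control value of its number. With the replicate number as a block Cox6a2 had a log2 fold change of -0.56 (edgeR unadjusted p = 0.0237, adjusted p = 0.284). Cox6b2 stood at 1.05, 1.85 and 1.58 against 1.76, 1.98 and 1.88 CPM (0.32, SE 0.28). In the fit with the block 0 members were called, against 47 of all genes (0.292%), and 2 members, Cox6a2 lower and Atp5g1 higher, had an unadjusted p under 0.05, or 1.94% against 13.2% of all genes.

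Complex V, the ATP synthase, joins a catalytic head to a rotor in the membrane. Its 17 nuclear rows summed to 3010, 2619 and 3137 CPM in control 1, 2 and 3, more than those of any other complex, and to 2725, 2658 and 3334 CPM in Ogt-KD 1, 2 and 3. Group means were 2922 ± 270.0 and 2905 ± 372 CPM (SD, n = 3 each). Of 16 tested, 7 lay above and 9 below 0, 0 were called, and the median was -0.01. The 17th row is a further Ensembl gene with the symbol Atp5o that had 0 reads in all 6 libraries.

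The alpha and beta subunits of the head were abundant, and beta varied less over the libraries than alpha, which ranged 1.27-fold. Atp5a1, the alpha subunit, stood at 527, 494 and 594 CPM in the controls and 504, 486 and 615 CPM in the Ogt-KD samples and had the highest mean FPKM of the nuclear complex V genes, 170.0. Atp5b, the catalytic beta subunit, stood at 725, 691 and 761 against 701, 699 and 697 CPM (log2 fold change -0.05, SE 0.10, 95% interval -0.28 to 0.18). Atp5b ranged 1.10-fold over the 6 libraries, and all 3 Ogt-KD values lay inside the control range. Per kilobase of the principal transcript Atp5e, the epsilon subunit, was highest at 400.1 CPM. Atp5mpl, a small membrane subunit, ranged 2.23-fold and stood at 89.9, 51.8 and 101 against 53.7, 51.5 and 115 CPM.

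Subunit c, which forms the rotor ring, is encoded by Atp5g1, Atp5g2 and Atp5g3, whose mature proteins are alike and whose import sequences differ. Atp5g2 stood at 128, 126 and 144 against 138, 127 and 185 CPM (log2 fold change 0.18, SE 0.15, edgeR adjusted p = 0.894) and Atp5g3 at 144, 144 and 157 against 147, 143 and 166 CPM (0.03, SE 0.09). Atp5g1 had the lowest FPKM of the 3 in every library, 7.22 to 9.11, against 75.1 to 110.2 for Atp5g2 and 64.6 to 75.9 for Atp5g3. The deposited length of Atp5g1 is 4912 bases, against 1675 for Atp5g2 and 2181 for Atp5g3, so the gap is wider in FPKM than in CPM. Atp5k, subunit e, which had the third smallest p of the complex, stood at 36.1, 25.4 and 38.6 against 33.8, 35.9 and 42.6 CPM (0.17, SE 0.18).

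Atp5g1 was the member with the smallest p, and its difference was not seen once its copy was counted with it. Atp5g1 stood at 35.9, 39.4 and 35.8 CPM in the controls and 44.0, 42.2 and 44.8 CPM in Ogt-KD 1, 2 and 3, means of 37.1 ± 2.02 and 43.7 ± 1.33 CPM (SD, n = 3 each), with no overlap (log2 fold change 0.24, SE 0.09, edgeR unadjusted p = 0.0297, adjusted p = 0.624). Among all genes 7.43% had all Ogt-KD values above all controls. Its processed pseudogene Gm10039 (chr11:100361716-100362126 on GRCm38) stood at 23.5, 16.4 and 20.8 CPM in the controls and 12.9, 18.6 and 13.9 CPM in Ogt-KD 1, 2 and 3. The match of 411 bases covers only 8.7% of the Atp5g1 transcript used, which is 4715 bases long. Whether reads of the gene were placed on the copy was not tested. The last 60 coding bases of Atp5g1, up to the stop codon, are shown with those of the copy, since this is where the only difference over 411 aligned bases lies, G437A counted from the first base of the Atp5g1 transcript and marked by a capital.
Atp5g1: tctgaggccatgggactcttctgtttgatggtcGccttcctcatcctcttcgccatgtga
Gm10039: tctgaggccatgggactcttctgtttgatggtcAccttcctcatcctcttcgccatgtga
Gene and copy together stood at 59.4, 55.8 and 56.6 CPM in the controls and 56.9, 60.8 and 58.8 CPM in the Ogt-KD samples, which overlapped (log2 fold change 0.04, SE 0.08, edgeR unadjusted p = 0.637). With all copies summed, 0 members had an unadjusted p under 0.05 and the groups of 1 member, Ndufaf7, did not overlap.

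**Figure D3:**
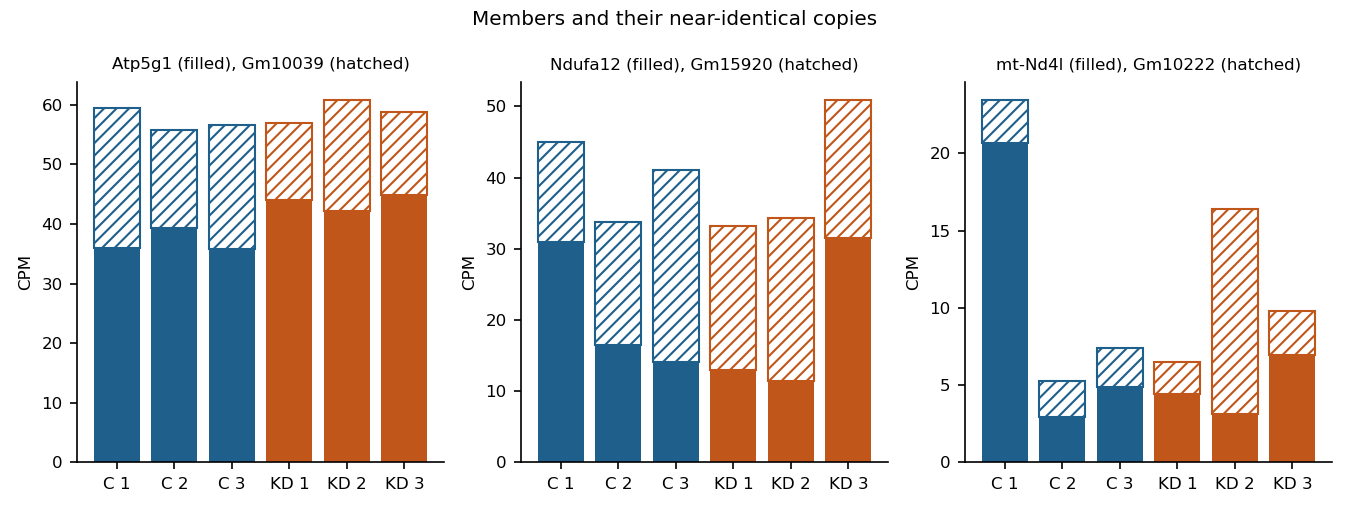
CPM of Atp5g1, Ndufa12 and mt-Nd4l (filled) with their near-identical copies Gm10039, Gm15920 and Gm10222 stacked on top (hatched), in control (C) and Ogt-KD (KD) libraries 1 to 3. Atp5g1 alone was higher in each Ogt-KD library than in each control, and the stacked heights of 55.8 to 60.8 CPM overlapped.

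Copies of this kind were common among the nuclear members. Of 96, 24 had at least 1 annotated copy that matched at least 95% of at least 150 bases. For 8 of them the copies held over 10% of the reads of the gene itself, namely Ndufa12, Ndufab1, Uqcr11, Cox5b, Cox7c, Atp5g1, Atp5l and Cycs. Atp5l, subunit g of complex V, had the most copies, 9, with 26.2% as many reads as the gene.

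The name rule also took genes outside the catalytic complexes, 8 complex I assembly factors, Ndufaf1 to Ndufaf8, which help to build it and are not part of it, and Atp5s, a coupling factor linked to the ATP synthase. All 9 were tested, 2 lay above and 7 below 0, 0 were called, and the median log2 fold change was -0.06. Ndufaf7, a methyltransferase, stood at 14.6, 15.6 and 18.4 CPM in the controls and 20.2, 20.7 and 18.5 CPM in the Ogt-KD samples (log2 fold change 0.29, SE 0.13, 95% interval -0.02 to 0.60, edgeR adjusted p = 0.669). Its groups did not overlap, but the lowest Ogt-KD and the highest control value were nearly the same. Ndufaf4 stood at 32.9, 25.6 and 30.5 against 23.2, 20.6 and 30.7 CPM (-0.25, SE 0.18) and Ndufaf1 at 17.3, 11.8 and 15.04 against 12.1, 12.0 and 15.5 CPM (-0.15, SE 0.19). Ndufaf8 had the highest mean FPKM of these factors, 21.3, and Ndufaf2 the lowest, 2.61.

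Members moved together from library to library more than they differed between the groups. Ogt-KD 3 was the highest library for 71 of 103 members (68.9%), against 26.3% of 12519 tested protein-coding genes. Control 2 was the highest for 0 members, against 14.5% of those genes. Control 2 was the lowest for 46 members (44.7% against 14.3%) and Ogt-KD 2 for 30 (29.1% against 16.9%). Relative to each gene's own mean, the median deviation on the log2 scale was 0.13, -0.21 and 0.12 in control 1, 2 and 3 and -0.14, -0.17 and 0.32 in Ogt-KD 1, 2 and 3. The spread within each group was thus wider than the difference between group medians.

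**Figure D4:**
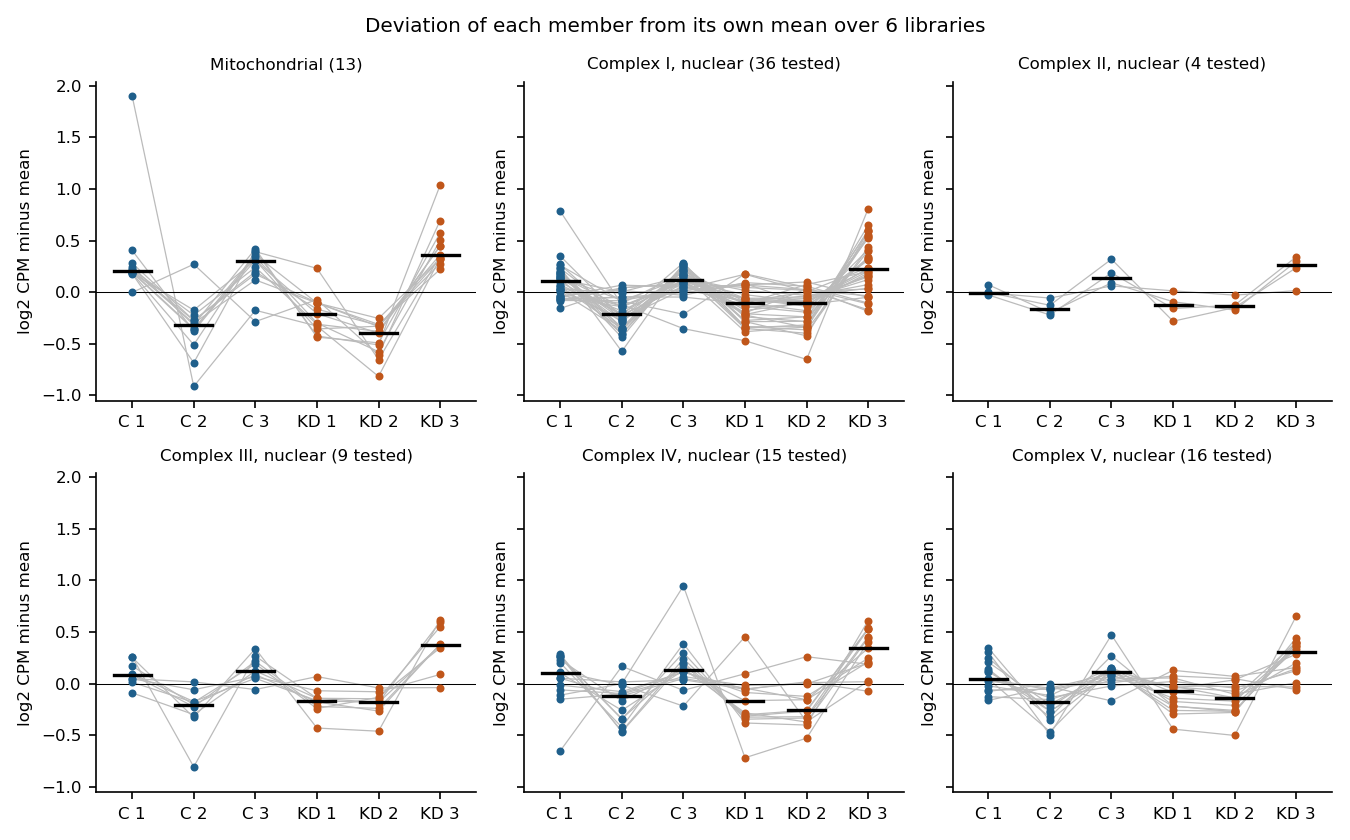
Log2 CPM of each tested member minus its own mean over the 6 libraries, for control (C, blue) and Ogt-KD (KD, orange) libraries, with 1 line per gene and a black bar at the median. Ogt-KD 3 lies highest by its median in each of the 6 panels.

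A high Ogt-KD 3 and a low control 2 were present in each complex, with different sizes. In Ogt-KD 3 the median deviation was 0.36 for the mitochondrial genes, 0.38 for nuclear complex III, 0.34 for complex IV, 0.31 for complex V, 0.27 for complex II and 0.23 for complex I. In control 2 it was -0.32 for the mitochondrial genes and between -0.21 and -0.12 for the nuclear parts of the complexes. Sdha, Uqcrc1 and Atp5b took little part, with 1.09-fold to 1.10-fold between lowest and highest library, while Uqcrh, Ndufa4 and Atp5mpl ranged 2.12-fold, 2.05-fold and 2.23-fold. The median over members was 1.52-fold, against 1.57-fold over all genes tested.

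Other short genes moved in the same direction. The 252 tested protein-coding genes outside the set and outside the ribosomal proteins whose principal transcript is under 700 bases had median deviations of 0.07, -0.16 and 0.10 in control 1, 2 and 3 and -0.09, -0.11 and 0.19 in Ogt-KD 1, 2 and 3. The 33 nuclear members of that length had 0.12, -0.26 and 0.13 against -0.14, -0.18 and 0.34. For 77 cytosolic ribosomal protein genes the values were 0.28, -0.27 and 0.24 against -0.31, -0.43 and 0.47, larger than for the members. At 1000 to 2000 bases the 2747 other genes had 0.00, -0.05 and 0.04 against -0.02, -0.03 and 0.08, and the 29 nuclear members of that length 0.12, -0.20 and 0.12 against -0.16, -0.13 and 0.30. The 9 nuclear members of 2000 to 4000 bases had -0.00, -0.11 and 0.15 against -0.18, -0.03 and 0.05, and the 2 longer ones 0.05, -0.06 and -0.19 against 0.15, 0.06 and -0.01, so Ogt-KD 3 did not stand out there by the same amount. Other genes of 4000 bases or more had medians between -0.05 and 0.04 in every library. Macrophage markers, given above, were highest in control 3 and Ogt-KD 3, and the 6 erythroid markers summed to 35.2, 15.9 and 48.0 CPM in the controls and 40.1, 55.5 and 200.04 CPM in Ogt-KD 1, 2 and 3. Not all marker lists had this order. Dendritic markers summed to 57.0, 69.7 and 25.6 CPM in the controls and 121, 174 and 60.6 CPM in Ogt-KD 1, 2 and 3. Neutrophil and CD8 T markers were highest in Ogt-KD 2 (194 and 17.1 CPM), and B cell markers in Ogt-KD 1 (87.1 CPM). NK markers were highest in Ogt-KD 3 (13.1 CPM), and platelet markers in control 3 and Ogt-KD 3 (5.24 and 5.23 CPM). The part of transcript length or of other cells in the order of the libraries was not tested.

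**Figure D5:**
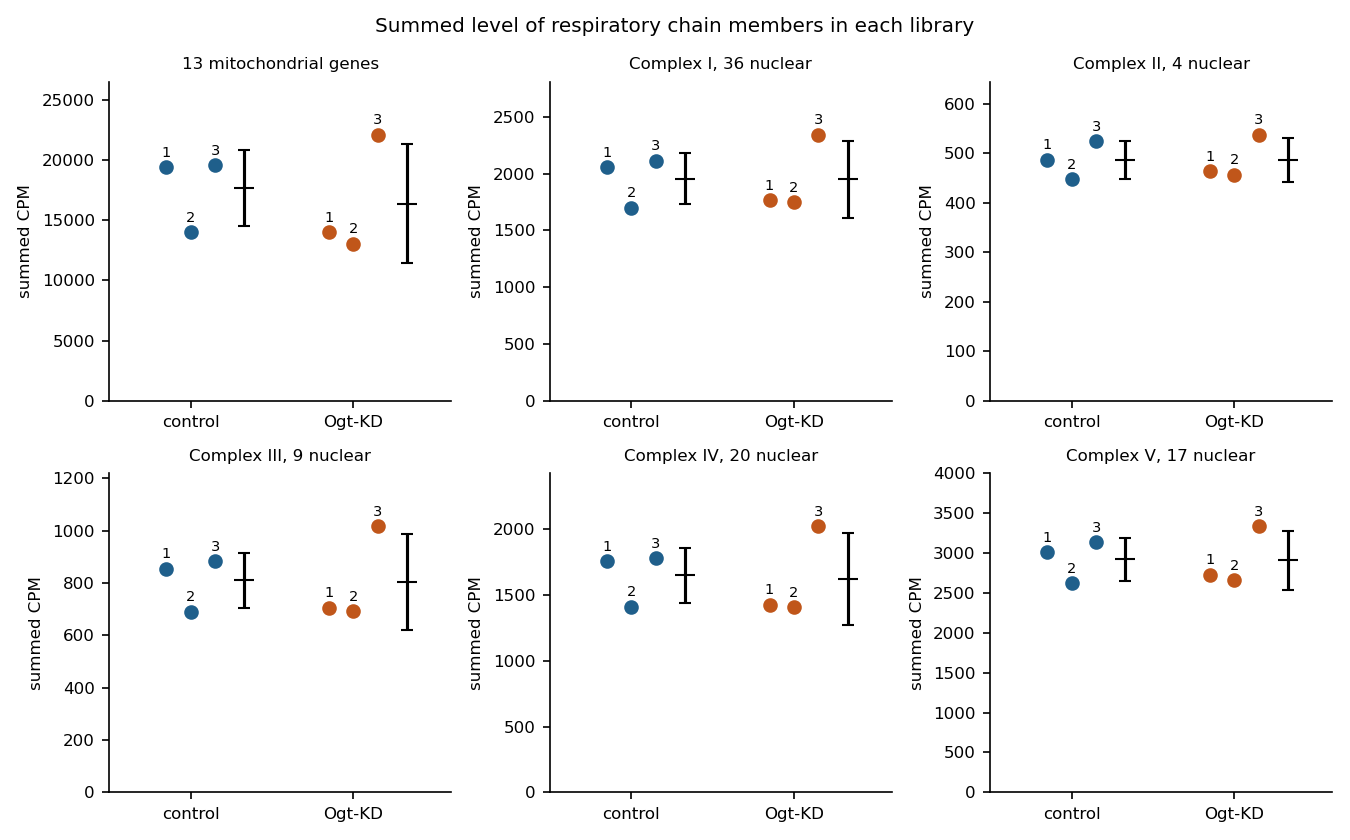
Summed CPM of the mitochondrial members and of the nuclear members of each complex in each library (points, numbered by replicate), with the mean and SD of each group of 3 in black. The groups overlap in all 6 panels, and Ogt-KD 3 is the highest library in each.

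Without Ogt-KD 3 the medians lay further below 0, at a log2 fold change of -0.18 for the members and -0.38 for the mitochondrial genes. At an unadjusted p under 0.05 there were then 12 members lower in Ogt-KD, or 11.7% against 8.78% of all genes, and 2 higher, or 1.94% against 9.59%. The 12 were Cox6a2, mt-Nd6, Uqcrh, Ndufb4, Ndufb3, mt-Nd5, mt-Co1, Ndufaf4, Ndufa6, Cox7a2l, Atp5h and Ndufb5, with log2 fold changes from -0.97 to -0.27, and the 2 were Atp5g1 and Ndufaf7. Even so 0 members were called, and the lowest edgeR adjusted p was 0.188, while 2 genes of 16329 were called (0.0122%). This set kept control 3. With both replicate 3 libraries left out the member median was -0.11. At an edgeR unadjusted p under 0.05, 4 of 103 members were then lower and 1 higher, against 2626 of 16319 genes in either direction. Without control 2, the lowest library for many members, the median was -0.11. Its sign turned on removal of any other library, to 0.02 without control 1 and 0.03 without control 3. It was 0.05 without Ogt-KD 1 and 0.07 without Ogt-KD 2, where the median of the mitochondrial genes came to 0.02.

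Promoter windows of nuclear members held some known motifs at higher shares than those of all genes, a description with no test. NRF1, the ETS family factor GABPA and YY1 are known regulators of respiratory genes, and their motifs were searched on both strands in RefSeq promoter windows of 300 bases (GRCm38.p6), 250 before to 50 after the start, which 77 nuclear members matched. The NRF1 motif (GCGCA and GCGC with any 1 base between) stood in 24.7% of them against 7.17% of 17492 protein-coding genes, the ETS core CCGGAAG in 23.4% against 12.9%, and the YY1 motif AAGATGGCG in 10.4% against 2.14%. By complex, NRF1 matches were found in 6 of 14 complex V genes, 7 of 32 complex I genes and 1 of 14 complex IV genes. A match describes letters and does not show binding.

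Ndufb4 and Sdha are shown because both have 3 NRF1 matches before the start while their RNA behaved differently. Each stretch is on the gene's strand, with the match in capitals.
Ndufb4, chr16:37654369-37654410: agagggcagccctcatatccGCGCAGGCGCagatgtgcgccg
Ndufb4, chr16:37654418-37654467: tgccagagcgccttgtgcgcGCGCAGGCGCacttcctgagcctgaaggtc
Sdha, chr13:74350266-74350315: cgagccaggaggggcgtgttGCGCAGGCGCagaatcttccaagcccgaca
Sdha, chr13:74350309-74350358: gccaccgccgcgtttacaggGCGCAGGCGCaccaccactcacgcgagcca
Sdha ranged 1.09-fold over the libraries, as given above, while Ndufb4, a supernumerary complex I subunit, stood at 44.8, 29.7 and 40.6 CPM in the controls and 27.6, 26.7 and 47.6 CPM in Ogt-KD 1, 2 and 3. Over the 75 tested members with a window, the highest library exceeded the lowest by a median of 1.35-fold in the 19 with an NRF1 match and 1.499-fold in the 56 without. Median log2 fold changes with and without an NRF1 match were -0.01 and 0.01. The other motifs did not share this order. The ranges were 1.47-fold with and 1.48-fold without an ETS match, and 1.53-fold with and 1.47-fold without a YY1 match.

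Other genes that the respiratory chain depends on were counted by list, and none of their members was called. Of 42 tested assembly factors outside the name rule 21 lay above and 21 below 0, with a median of -0.00. Foxred1 and Timmdc1, both needed to build complex I, had the smallest p, with log2 fold changes of 0.20 (SE 0.11) and -0.24 (SE 0.12). Of 24 genes for the upkeep of mitochondrial DNA and RNA 7 lay above and 17 below 0 (median -0.10), among them Polg, the mitochondrial DNA polymerase, at 148, 148 and 142 CPM against 138, 121 and 121 CPM (-0.20, SE 0.09, edgeR adjusted p = 0.668), and Lrpprc, which stabilises mitochondrial mRNA (-0.16, SE 0.09). Polg values did not overlap between groups, as in 5.88% of all genes on that side.

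Among 13 tested regulators of mitochondrial biogenesis 5 lay above and 8 below 0 (median -0.05), with the smallest p for Myc (-0.19, SE 0.10) and Hif1a (0.16, SE 0.10). The 14 citric acid cycle genes had 5 above and 9 below 0 (median -0.02), with the smallest p for Suclg1 (-0.20, SE 0.12) and Mdh2 (0.26, SE 0.17). Of 13 coenzyme Q genes 8 lay above and 5 below 0 (median 0.05). Coq8a, a kinase-like protein needed for coenzyme Q synthesis, stood at 12.3, 12.0 and 13.6 CPM in the controls and 17.8, 16.6 and 17.2 CPM in Ogt-KD 1, 2 and 3 (log2 fold change 0.45, SE 0.12, edgeR unadjusted p = 0.0066, adjusted p = 0.526). It was the only gene of these lists with an unadjusted p under 0.05, a property of 7.52% of all genes. Its groups did not overlap, as was so for 4 coenzyme Q genes on the higher and 1 on the lower side, against 7.43% and 5.88% of all genes. In the other lists these counts were 0 and 3 of the 24 upkeep genes, 3 and 2 of the 42 assembly factors, 0 and 1 of the 14 citric acid cycle genes, and 0 and 0 of the 13 regulators. For Coq3, a methyltransferase of this synthesis, the log2 fold change came to 0.40 (SE 0.20).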

How the data were processed

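Reads were aligned with TopHat2 2.0.9 and Bowtie2 2.0.6 and the build mm9 is named, per the submitters' processing notes, but the coordinates of 103 of the 109 members are identical to GENCODE M21 (GRCm38), which is used here. The counting tool and its strand setting remain unstated here, and 51 members overlap another gene, 36 of them on the other strand. Per the file headers the authors deposited read counts and FPKM per library, a mean normalised signal per group, and their log2 fold change and p-value with its adjusted p. The deposited gene length, in bases, served to judge the FPKM.

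CPM and tests came from the counts with edgeR 4.0.16 in R 4.3.3 (quasi-likelihood F test, robust, TMM, filterByExpr, Benjamini-Hochberg over 16075 genes, threshold 0.05). The fit was also run on simulated counts. These were drawn for each gene independently, without the shared movement of members between libraries, so that check does not cover it. limma 3.58.1 and DESeq2 1.42.0 were alternatives. Copies were found with blastn 2.17.0 on GENCODE M21 transcripts.

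Deviations from the group means correlated between same-numbered samples at 0.109, 0.346 and 0.523 across genes, and between differently numbered ones at -0.418 to 0.267, the highest being control 2 with Ogt-KD 1. This pairing rests on the data, since no label ties the numbers to a litter or day, and an added fit has the replicate number as a block. No label says that samples came from separate mice, so p-values measure only the spread between these samples, which may be technical.

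Named genes were all mitochondrial genes, listed catalytic or core subunits, paralogs, the highest and lowest by FPKM per complex, the 3 smallest p per group, and any called member, with the 2 smallest p for other lists. Further members were named after their values were seen. Members and lists were chosen with earlier results of these data known. A gene that the naming rule takes is not reported here.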

Additional observations from a re-analysis of the deposited data

How the results depend on the processing

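Over 15 alternatives to the reported fit the count of respiratory chain members called stayed at 0, from 0 to 0 with each library left out in turn. These alternatives were DESeq2 size factors, library totals without TMM, library size without mitochondrial genes, no filter, DESeq2, limma-voom, the replicate block, 7 sets with libraries left out, and members summed with their copies, the last chosen after seeing the data. At an unadjusted p under 0.05 DESeq2 gave 0 members, limma-voom 1, no filter 0 and library totals without TMM 2. Calls over all genes, 1 in the reported fit, were 4 without a filter, 111 with DESeq2, 47 with the replicate block, 35 without both replicate 3 libraries, and from 1 to 2 with each library left out in turn, the 2 being reached on removal of Ogt-KD 2 or Ogt-KD 3. The replicate block changed no call of a member. Medians per complex and genome, and the ratios of summed levels, moved by less than the spread between libraries under every alternative. With each library left out the median log2 fold change ran from -0.38 to 0.02 for mitochondrial and from -0.14 to 0.07 for nuclear members, and that of each complex crossed 0. Of 1545 pairs of a member and an alternative, 67 moved by more than 1 SE, 49 of them without Ogt-KD replicate 3 and 15 without both replicate 3 libraries. Depth limits mt-Atp8 and the paralogs with few reads.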

Other observations

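Rows of the mitochondrial genome that code for no protein were lowest in Ogt-KD 1 and Ogt-KD 2. Control 2 was the lowest control, though close to control 1 for mt-Rnr1. The small ribosomal RNA gene mt-Rnr1 stood at 243, 235 and 304 CPM in control 1, 2 and 3 and 148, 149 and 276 CPM in Ogt-KD 1, 2 and 3 (log2 fold change -0.45, SE 0.26, edgeR adjusted p = 0.766). The large one, mt-Rnr2, stood at 369, 254 and 382 against 217, 214 and 360 CPM (-0.34, SE 0.25). The 22 mitochondrial tRNA rows summed to 49.9, 37.2 and 56.2 CPM against 28.6, 30.2 and 66.9 CPM. In all 3 the groups overlapped through Ogt-KD 3.

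Some genes of the chain fell outside the rule by name or biotype. Ndufb1-ps, annotated as a bidirectional promoter lncRNA (chr12:101968090-101977068), stood at 47.8, 27.8 and 51.3 CPM in control and 33.5, 32.3 and 59.9 CPM in Ogt-KD 1, 2 and 3. Usmg5, a small subunit of the ATP synthase, stood at 100.3, 58.9 and 89.4 against 52.8, 58.1 and 107 CPM (log2 fold change -0.19, SE 0.31). Atpif1, the inhibitor of the ATP synthase, stood at 16.9, 15.1 and 23.7 against 16.6, 19.4 and 32.6 CPM (0.30, SE 0.29). Cox17, a copper chaperone for complex IV, stood at 14.1, 10.6 and 14.2 against 15.7, 14.5 and 14.3 CPM (0.19, SE 0.15), where all 3 Ogt-KD values lay above the controls by a margin of less than 0.1 CPM. None of these was called, and all were chosen after the data were seen.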
